A study of Homo sapiens with 4 samples.

Results

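Small nucleolar RNA host genes are transcription units whose introns hold the small RNAs that guide the modification and processing of ribosomal and spliceosomal RNA. The host transcript is spliced, the introns are debranched and trimmed, and the small RNA is left as a stable particle, bound by fibrillarin and its partners in the box C/D class, which guides ribose methylation, and by dyskerin and its partners in the box H/ACA class, which guides pseudouridylation. Many of the spliced hosts are non-coding RNAs that ribosomes engage and that nonsense-mediated decay then degrades, so that their level is known to depend on translation and growth as well as on transcription. GAS5, the best known of them, was named for its accumulation in growth-arrested cells.

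The members are all genes with a symbol of SNHG followed by a number, together with GAS5 and EPB41L4A-AS1, in total 30 of the 61193 genes with a listed transcript. They have 876 transcripts in the GENCODE 44 annotation of GRCh38, of which 665 are listed in the deposited count table. A count in any column was given to 42 of these transcripts, from 20 genes. A mean of 30 or more counts over the 4 columns was reached by 10 transcripts, from the 6 genes GAS5, SNHG3, SNHG4, SNHG6, SNHG10 and SNHG32, which are called well counted here. These 10 transcripts hold 92.7% of the counts of the members, and SNHG4 alone holds 51.3%. Whether the host transcripts differ in abundance between the groups is the question that the design puts to these genes.

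Poly-A RNA was sequenced from H1299, a cell line of human lung carcinoma that is labelled wild type. The HgCl2 group received 5 μM HgCl2 for 48 h, and the EtOH group received the solvent alone for the same time. The treatment text of the labels gives the HgCl2 dose for every sample, whereas the titles name the groups EtOH and HgCl2, and the titles were used. Each group has 2 columns, labelled as replicates 1 and 2. The totals lie between 4720978 and 5053120 counts per column. The variance of the difference between the columns of a group was 0.505 times (95% interval 0.492 to 0.517) that of independent counting in EtOH and 0.516 times (0.503 to 0.531) in HgCl2, against 31.8 times between EtOH column 1 and HgCl2 column 1. This is below the noise of sampling, so the columns of a group count as 1 sample here. Whether the deposited counts of the groups overlap or lie apart is therefore no replicate check, and these counts are not scaled. With 1 sample a group there is no test of the treatment: the values below describe these libraries, folds have no replicate check, and the intervals, which are 95% Clopper-Pearson intervals from the mean counts, cover counting error only.

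Of the marker genes, VIM, of mesenchymal cells, had 620, 628, 501 and 511 counts, where the first pair of values is EtOH and the second pair HgCl2, an order kept throughout. KRT8, an epithelial keratin, had 53, 58, 4 and 4 counts, and KRT18 23, 24, 18 and 31. KRT19 and EPCAM, also epithelial, and PTPRC, of leukocytes, were at 0 in every column. COL1A1, of fibroblasts, had 13, 18, 3 and 4 counts, and PECAM1, of endothelium, 5, 4, 1 and 2. The table can miss genes that are expressed. A transcript seems to be counted mainly on exon bases that no other listed transcript covers, as described further on, though the counting options are not known. An epithelial marker at 0 therefore says little about the line.

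The sequences shown for the results are exon stretches that belong to a single listed host transcript and the small RNAs that lie in or beside them. SNORA73A is a box H/ACA RNA known for its part in the cleavage of the ribosomal RNA precursor, and lies in an exon of the SNHG3 transcript ENST00000437681. SCARNA13 is a small Cajal body RNA, and lies in an exon of the SNHG10 transcript ENST00000654925. SNORD52 is a box C/D methylation guide, and lies in an exon of the SNHG32 transcript ENST00000395788. They are shown 5′ to 3′ with the conserved boxes in capitals, from the GENCODE 44 transcripts, at chr1:28507366-28507571 on the plus strand, chr14:95533355-95533629 on the minus strand and chr6:31837076-31837142 on the plus strand.
SNORA73A: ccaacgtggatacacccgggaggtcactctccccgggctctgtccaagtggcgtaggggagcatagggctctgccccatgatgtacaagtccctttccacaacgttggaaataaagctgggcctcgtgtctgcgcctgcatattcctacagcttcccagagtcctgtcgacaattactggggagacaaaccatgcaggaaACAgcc
SCARNA13: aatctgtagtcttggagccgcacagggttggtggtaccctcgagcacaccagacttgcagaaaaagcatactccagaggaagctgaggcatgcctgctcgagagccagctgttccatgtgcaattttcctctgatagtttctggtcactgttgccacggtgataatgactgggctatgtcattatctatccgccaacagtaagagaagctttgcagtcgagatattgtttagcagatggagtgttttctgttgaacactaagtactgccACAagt
SNORD52: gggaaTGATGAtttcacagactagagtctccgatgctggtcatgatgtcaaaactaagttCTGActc
The letters ACA followed by 3 further bases end both H/ACA sequences, as they do in 65.3% of the 239 annotated SNORA and SCARNA transcripts. SNORD52 holds TGATGA within its first 20 bases, as do 65.3% of the 314 annotated SNORD transcripts, and CTGA within its last 12 bases, as do 82.8%. The motifs were searched on the RNA strand only, and each match is a description of the letters.

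For the 3 called transcripts and their counterparts in SNHG3 and SNHG4, 60 bases are shown next, taken from the longest run of exon bases covered by no other listed transcript, in lower case throughout since no motif is marked. The tables hold 1 count per transcript, so where along it the reads lay is not known. The SNHG3 pair and the SNHG4 pair are transcripts of 1 gene with unlike log2 fold changes.
SNHG3 ENST00000437681, chr1:28506909-28506968, plus strand: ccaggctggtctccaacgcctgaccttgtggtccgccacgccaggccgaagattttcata
SNHG3 ENST00000413987, chr1:28510527-28510586, plus strand: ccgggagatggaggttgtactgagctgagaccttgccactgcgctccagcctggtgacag
SNHG4 ENST00000505522, chr5:139284221-139284280, plus strand: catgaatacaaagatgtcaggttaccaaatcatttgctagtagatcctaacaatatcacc
SNHG4 ENST00000648842, chr5:139280284-139280343, plus strand: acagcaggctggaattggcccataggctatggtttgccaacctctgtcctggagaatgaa
SNHG10 ENST00000654925, chr14:95533179-95533238, minus strand: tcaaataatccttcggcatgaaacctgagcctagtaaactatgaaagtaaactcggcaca
In SNHG3 the run of ENST00000437681 is 1015 bases long and stops at chr1:28507365, the base before SNORA73A. In SNHG10 the run is 293 bases long, at chr14:95533062-95533354, and begins right after the 3′ end of SCARNA13. Both stretches adjoin a small RNA that the transcript keeps in an exon. This follows from the definition of a run, since both small RNAs are listed transcripts whose bases are left out. Words of 31 bases were searched in the 24 chromosomes. They came from every run of at least 31 exon bases covered by no other listed transcript, not only the longest. The 60 bases shown were chosen so that each of their words occurs once. In ENST00000437681 78.4% of the words occur once, in SNHG10 85.2%, in SNHG4 ENST00000505522 91.4% and in SNHG3 ENST00000413987 97.8%, and in the other 6 well-counted transcripts the share is between 98.8% and 100%. How reads that match several places were counted is not given in the sources used here.

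Among the box H/ACA hosts, SNHG4 had the most counts. It lies on chromosome 5 and carries SNORA74A and SNORA74D, both in introns of its 2 well-counted transcripts. ENST00000505522 (chr5:139274131-139284899, 5 exons) had 1140, 1129, 385 and 395 counts. The scaled level was 2.63-fold lower in HgCl2, a log2 fold change of -1.40 (interval -1.57 to -1.23). On the scale of the deposited FPKM values the log2 fold change was -1.22. This transcript was the lowest of the 10 in log2 fold change. In bulk RNA, fewer cells with a transcript and less of it per cell cannot be told apart. ENST00000648842 (chr5:139274102-139280947, 5 exons) had 166, 162, 194 and 188 counts, slightly more in the HgCl2 columns, with a log2 fold change of 0.36 (0.05 to 0.67). The transcripts end at different places, the longer one with a final stretch that the shorter one lacks, and exons of both are shared on the same strand with MATR3, which encodes a nuclear matrix protein. Bases of ENST00000648842 also lie opposite SIL1, on the other strand.

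SNHG3 carries SNORA73A and SNORA73B on chromosome 1, where its exons overlap those of RCC1, the exchange factor of Ran. All 3 of its annotated transcripts were well counted, and their differences had no common direction. ENST00000437681 (chr1:28506351-28509633), annotated as a retained intron, had 55, 63, 121 and 118 counts. Its level was 2.24-fold higher in HgCl2, with a log2 fold change of 1.16 (0.70 to 1.64). ENST00000413987 (chr1:28505980-28510892), a lncRNA transcript with both small RNAs in introns, had 99, 83, 52 and 61 counts. Its log2 fold change was -0.54 (-1.05 to -0.05). ENST00000447507 (chr1:28506043-28508270), a short retained-intron transcript of 185 bases, had 59, 67, 62 and 56 counts, which overlapped between the groups, and a log2 fold change of 0.05 (-0.49 to 0.58).

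SNHG10, the host of SCARNA13 on chromosome 14, had 1 well-counted transcript, ENST00000654925 (chr14:95522136-95534043, 3 exons). It had 29, 33, 66 and 50 counts. Its level was 2.07-fold higher in HgCl2, a log2 fold change of 1.05 (0.39 to 1.73). The call rests on few counts: without EtOH replicate 1 or without HgCl2 replicate 1 the log2 fold change was under 1 and the transcript was no longer called, its lowest value under any alternative being 0.84. Bases of this transcript lie opposite GLRX5, on the other strand. A second SNHG10 transcript that splices SCARNA13 out, ENST00000667668, had 5, 6, 0 and 1 counts, too few for more than a wide interval on the log2 scale (-13.5 to 0.48).

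Among the box C/D hosts, GAS5 carries 10 annotated box C/D RNAs and SNORA103 on the minus strand of chromosome 1. Its well-counted transcript ENST00000650796 (chr1:173863931-173867991) is a retained-intron form in which 10 of these 11 small RNAs lie in an exon. It had 173, 159, 180 and 169 counts, which overlapped between the groups, with a log2 fold change of 0.22 (-0.10 to 0.53). Bases of this retained-intron transcript lie opposite GAS5-AS1, on the other strand. The spliced transcript ENST00000432536 had 2, 2, 2 and 0 counts, and the other listed transcripts of GAS5 had none. SNHG32 carries SNORD48 and SNORD52 on chromosome 6. Its well-counted transcript shares exon bases with the gene ENSG00000285565 on the same strand. ENST00000395788 (chr6:31836843-31839764) had 50, 47, 43 and 46 counts, nearly the same in all columns, with a log2 fold change of 0.02 (-0.60 to 0.64) that took values of either sign between alternatives, from -0.03 to 0.20.

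SNHG6 carries SNORD87, a methylation guide. Its retained-intron transcript ENST00000521127 (chr8:66922271-66925541), with SNORD87 in an exon, had 161, 182, 243 and 228 counts. Its log2 fold change was 0.60 (0.31 to 0.89), a 1.52-fold higher level in HgCl2. The spliced transcript ENST00000520619 (chr8:66922018-66926398), with SNORD87 in an intron, had 67, 66, 77 and 71 counts and a log2 fold change of 0.30 (-0.20 to 0.80). Bases of the spliced transcript lie opposite MCMDC2.

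**Figure D1:**
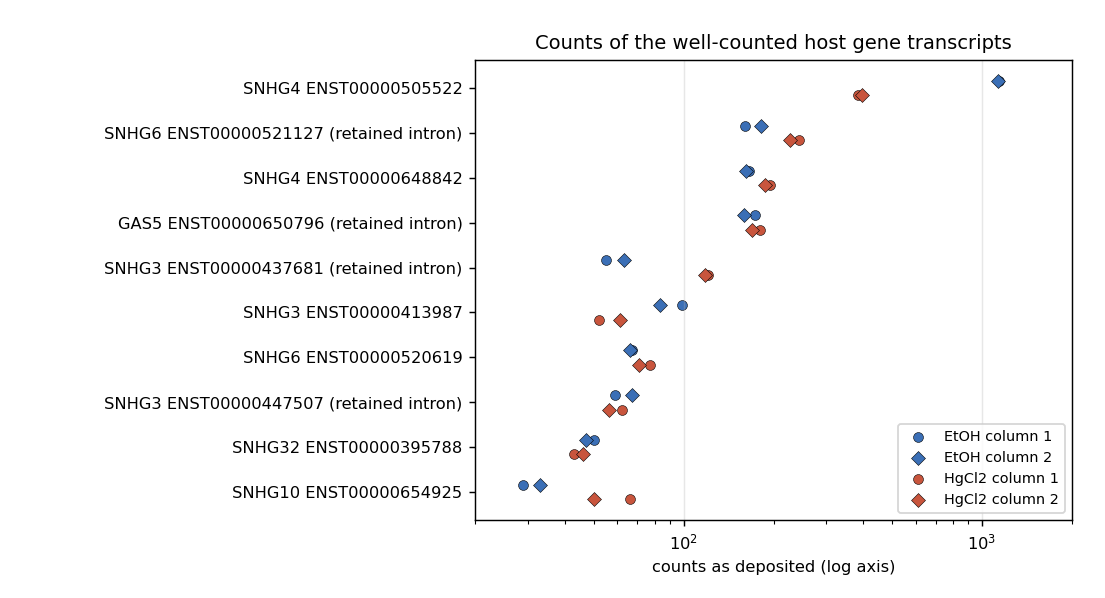
Counts as deposited (log axis) of the 10 host gene transcripts with a mean of 30 or more counts. Circles are column 1 and diamonds column 2 of EtOH (blue) and HgCl2 (red). The HgCl2 columns of SNHG4 ENST00000505522, at 385 and 395, lie far below its EtOH columns at 1140 and 1129, while those of GAS5 overlap.

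Of the 10 well-counted transcripts 2 were at least 2-fold higher in HgCl2, against 15.5% of all 7156 transcripts with such a mean, and 1 was at least 2-fold lower, against 9.64% of them. The shares are near the background, so the calls are no result about these genes as a group. Their median log2 fold change was 0.26, beside 0.21 for all 7156 transcripts and 0.19 for the 754 transcripts of other lncRNA genes. As the median of all well-counted transcripts lies at 0.21 under this scaling, and between 0.16 and 0.39 under other scalings, the differences were also taken relative to it. SNHG3 ENST00000437681 then differed by 0.95, SNHG10 by 0.84, SNHG6 ENST00000521127 by 0.39, GAS5 by 0.01, SNHG3 ENST00000413987 by -0.75 and SNHG4 ENST00000505522 by -1.61. Relative to this median 0 of the 10 were 2-fold higher, against 11.3% of all, and 1 was 2-fold lower, against 12.9%.

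**Figure D2:**
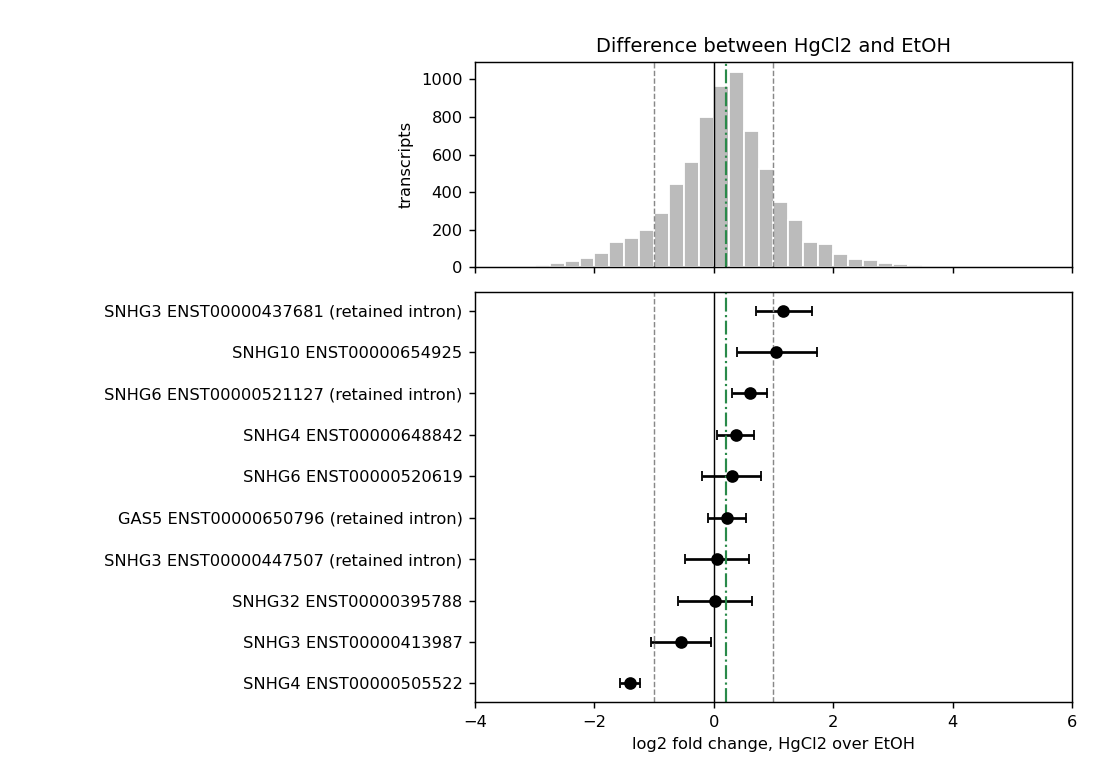
Log2 fold change, HgCl2 over EtOH. The upper panel counts the 7156 transcripts with a mean of 30 or more counts in bins of 0.25. The lower panel shows the 10 host gene transcripts with 95% counting intervals. Dashed lines mark a 2-fold difference and the green line the median of all, 0.21. SNHG4 ENST00000505522, at -1.40, lies left of the lower line, and SNHG3 ENST00000437681 and SNHG10 lie just past the upper one.

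Within SNHG4 and SNHG3 the counts were divided differently between transcripts in the 2 groups, while SNHG6 differed little. ENST00000505522 held 87.4% (interval 85.4 to 89.1) of the SNHG4 counts in EtOH and 66.95% (63.0 to 70.8) in HgCl2. By column the shares were 87.3%, 87.5%, 66.4% and 67.5%. In SNHG3 the retained-intron transcript ENST00000437681 held 27.7% (21.8 to 34.2) in EtOH and 50.9% (44.3 to 57.4) in HgCl2, and ENST00000413987 42.7% (36.0 to 49.7) and 24.04% (18.7 to 30.03). In SNHG6 the retained-intron transcript held 70.4% (64.3 to 76.1) and 75.4% (70.2 to 80.0), intervals that overlap. Such divergence was common: of 828 genes with at least 2 well-counted transcripts, 49.4% had transcripts whose log2 fold changes differed by at least 1, as SNHG3 and SNHG4 did and SNHG6 did not. Summed per gene, SNHG3 had 213, 213, 235 and 235 counts, a log2 fold change of 0.29 (0.01 to 0.56), and SNHG4 had 1306, 1291, 580 and 585 counts, a log2 fold change of -1.01 (-1.16 to -0.87).

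**Figure D3:**
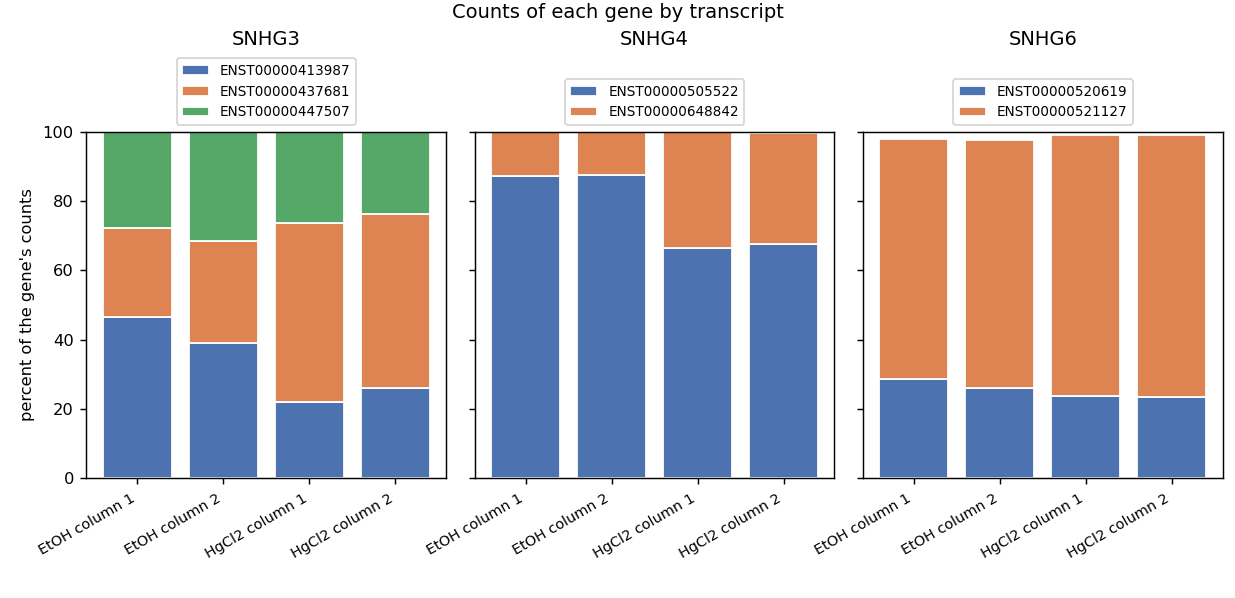
Percent of the counts of SNHG3, SNHG4 and SNHG6 on each well-counted transcript, in each column. The other transcript of SNHG4 and of SNHG6 with a count, which has few, is not drawn. In SNHG4 the blue share, ENST00000505522, is 87.3% and 87.5% for EtOH but 66.4% and 67.5% for HgCl2.

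The position of the small RNA, in an exon or in an intron of the transcript counted, was compared because a transcript with the small RNA in an exon cannot have released it by splicing of that intron. The comparison was chosen after the values were seen. In 5 well-counted members a small RNA lies in an exon (GAS5, SNHG3 ENST00000437681, SNHG6 ENST00000521127, SNHG10 and SNHG32), and their log2 fold changes ranged from 0.02 to 1.16 with a median of 0.60. In the other 5 they ranged from -1.40 to 0.36 with a median of 0.05. Among the transcripts of other host genes, the median was 0.48 for the 25 with a small RNA in an exon. Of these, 9 were at least 2-fold higher and 1 lower. For the 176 without, the median was 0.41, and 33 were higher and 13 lower. The shares over all 7156 well-counted transcripts were 15.5% higher and 9.64% lower, with a median of 0.21. By class, the 4 members annotated as retained introns had a median of 0.41, and 1 of them was 2-fold higher. GAS5, SNHG3 ENST00000437681 and SNHG6 ENST00000521127 belong to this class and also have a small RNA in an exon. Position and class can therefore not be told apart in the members. Of the 1057 retained-intron transcripts of all other genes 32.5% were 2-fold higher and 6.72% lower, with a median of 0.59, and of the 57 from other host genes 45.6% were higher, with a median of 0.85. The median of the 4 members lies below both of these medians.

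Levels per length depend on which length is used. By the deposited FPKM values, which divide by the whole length of a transcript although only part of it seems to be counted, SNHG4 ENST00000505522 was the highest of the 10 in EtOH, with 86.7 FPKM as the group mean, and had 37.2 in HgCl2. SNHG6 ENST00000521127 had 55.7 and 95.7 FPKM. Per kilobase of own exon bases the order turned. SNHG6 ENST00000521127 had 927 counts per kilobase in EtOH and 1273 in HgCl2, and SNHG4 ENST00000505522 had 716 and 246. The 185 own bases of this SNHG6 transcript lie in runs of at most 74 bases, shorter than a sequencing read of 75 bases. Its values per own kilobase may therefore divide by bases other than those counted, and the turned order is no result about the levels. At the low end SNHG10 had the lowest FPKM in EtOH, 3.59, with 8.38 in HgCl2, and SNHG3 ENST00000437681 had 4.11 and 10.4. Per kilobase of own bases SNHG3 ENST00000437681 was lowest in EtOH, with 37.6 counts, followed by SNHG3 ENST00000413987 with 73.9 and SNHG10 with 106. No value per own kilobase was formed for SNHG3 ENST00000447507, which has 110 own bases. One deposited count is worth 1.25 times more FPKM in HgCl2 than in EtOH.

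The reach of the count table sets what can be said of the other members. Of the 665 listed transcripts 516 have no exon base to themselves, and 1 of these, the SNHG6 transcript ENST00000520348, has a count. Of the 623 transcripts at 0 in all columns, 550 have fewer than 75 own bases in a row, the length of a sequencing read, and 56 have 150 or more, among them 32 of SNHG14. The 10 genes with no count are SNHG1, SNHG9, SNHG11, SNHG14, SNHG15, SNHG18, SNHG21, SNHG25, SNHG28 and SNHG30. SNHG1, which carries 9 small RNA loci, has 54 listed transcripts and none with an own run of 150 bases, so its 0 is not a level of the gene. SNHG14, the long host of the SNORD115 and SNORD116 clusters that is best known from neurons, has 142 listed transcripts, 32 of them with such a run, and no count.

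**Figure D4:**
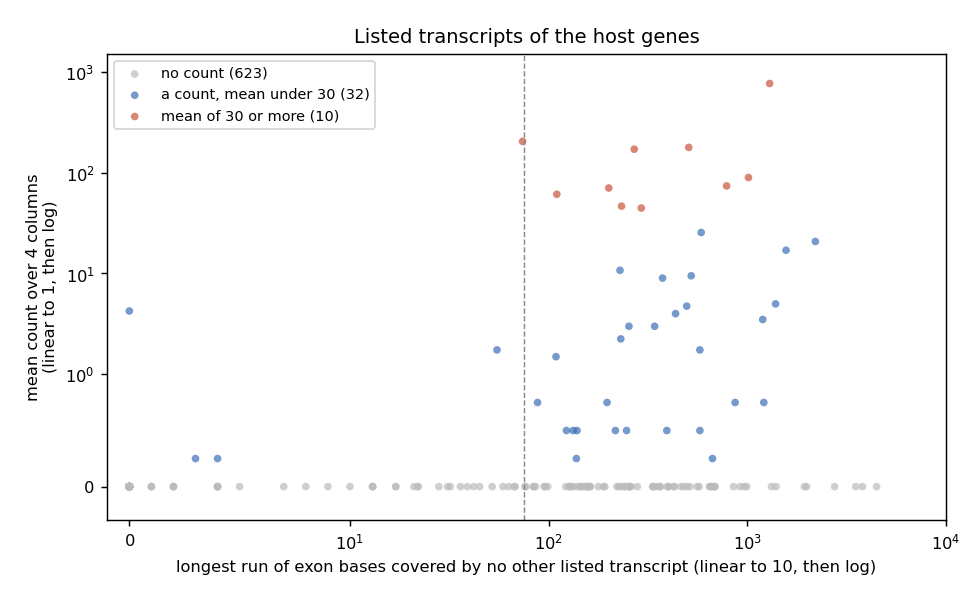
Mean count of each of the 665 listed host gene transcripts against the longest run of exon bases that no other listed transcript covers. Both axes are linear near 0 and then logarithmic, and the dashed line marks 75 bases. Of the 623 transcripts without a count (grey), 550 lie left of the line, and 9 of the 10 well-counted transcripts (red) lie right of it.

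Below a mean of 30 counts lie 32 transcripts with a count, of which 14 have more than 3 counts in at least 1 group. Of these 14, 11 were lower and 3 higher in HgCl2. The lower share, 78.6%, stands beside 73.4% of the 14329 transcripts of this kind over all genes, and transcripts with 1 to 9 counts were fewer in HgCl2, 14739 and 14818 against 20585 and 20539 in EtOH. The part of this shift in the members' values was not tested. SNHG12, a host of both classes of small RNA, was the furthest up: ENST00000650239 had 3, 2, 17 and 16 counts, a ratio of 7.29 with an interval of 0.95 to 5.58 on the log2 scale. SNHG27 ENST00000658913, whose intron holds a SNORA70 copy, had 17, 13, 37 and 35 counts, with a log2 fold change of 1.41 (0.50 to 2.38). SNHG8 ENST00000654083, the host of SNORA24, had 14, 18, 23 and 28 counts, with a log2 fold change of 0.82 (-0.14 to 1.82).

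Among those lower in HgCl2, SNHG26 ENST00000415611, the host of SNORD93, had 27, 24, 9 and 8 counts, a log2 fold change of -1.44 (-2.76 to -0.28). SNHG20 ENST00000366365, with SCARNA16 in an exon, had 25, 12, 2 and 4 counts, a log2 fold change of -2.48 (-4.88 to -0.71), and its EtOH columns were far apart. EPB41L4A-AS1 ENST00000427306, the host of SNORA13, had 13, 15, 4 and 4 counts, and its interval on the log2 scale, -3.72 to 0.01, just reached 0. SNHG22 ENST00000617833 had 13 and 6 counts in EtOH and 0 in both HgCl2 columns. With HgCl2 set to 3 counts it was 2.87-fold lower, and the upper end of its log2 interval was -0.93. SNHG17 ENST00000424235, from the host of the SNORA71 family, had 5 and 7 counts in EtOH and 0 in HgCl2. With the same setting it was 1.81-fold lower, and the upper end of its log2 interval was -0.09. Both folds depend on the 3 counts chosen and are not bounds from the counts. SNHG16 ENST00000587743 had 10, 6, 3 and 1 counts, and its interval on the log2 scale, -5.13 to 0.47, held 0. The other 18 transcripts had 3 or fewer counts in both groups, and they are all that was counted of SNHG5, SNHG7, SNHG19, SNHG29 and SNHG31.

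**Figure D5:**
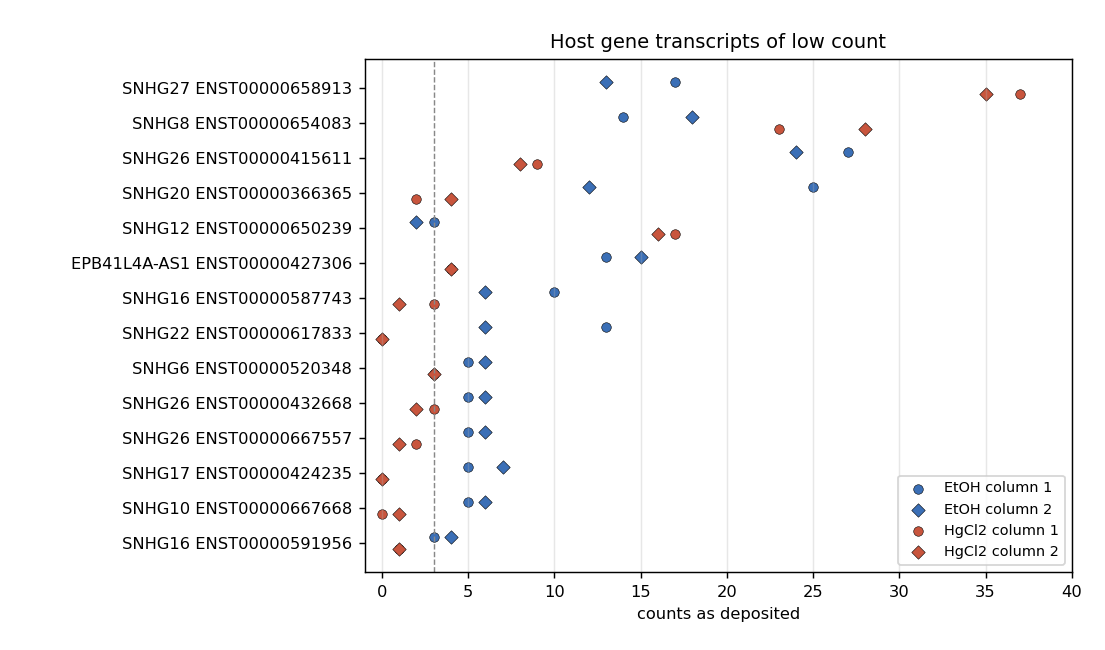
Counts of the 14 host gene transcripts with a mean under 30 counts and more than 3 counts in a group, with symbols as in the plot of the well-counted transcripts. The dashed line marks 3 counts. SNHG27, SNHG8 and SNHG12 have higher counts in the HgCl2 columns and the other 11 lower.

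The small RNAs themselves had few counts in the table. The member genes hold 152 annotated loci of small nucleolar or Cajal body RNAs, 84 of them in SNHG14 and 11 in GAS5. The 14 loci taken from RefSeq only could not be looked up in the count table, so nothing is known here of their counts. The other 138 are listed, and 8 of these have a count. The highest was SNORA73B, in SNHG3, with 3, 7, 4 and 6 counts. SNORD93, in SNHG26, had 5, 4, 0 and 0, and SNORA13, in EPB41L4A-AS1, 3, 3, 0 and 0. In the other direction, the SNORA70 copy in SNHG27 had 0, 0, 2 and 2, and SNORD1B, in SNHG16, 0, 0, 1 and 1. Over all genes 4 of 552 listed small nucleolar and Cajal body RNA transcripts were well counted, all outside the members. They are too few for a result about small RNAs as a group. Of all 7156 well-counted transcripts 15.5% were at least 2-fold higher and 9.64% lower. SNORD14A, with 25, 32, 64 and 84 counts, and SNORA33, with 99, 97, 222 and 244, were at least 2-fold higher, with log2 fold changes of 1.52 and 1.39. SNORA72 and SNORD101 had 0.71 and 0.88. As poly-A RNA was selected, counts at these loci can come from unspliced host transcripts as well as from the small RNAs, and these cannot be told apart.

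Few transcripts of the genes for the proteins of the pathway were well counted, and these are values of RNA. Of all 7156 well-counted transcripts 15.5% were at least 2-fold higher and 9.64% lower. With so few transcripts, the absence of calls among them is no result about these genes. Of the box C/D core proteins only NOP58 had well-counted transcripts: its main transcript had 1181, 1215, 1089 and 1040 counts, a log2 fold change of -0.03 (-0.15 to 0.09). The other one, ENST00000478508, which has no defined coding sequence, had 65, 56, 90 and 83 counts, a log2 fold change of 0.66 (0.17 to 1.16). None of the box H/ACA core proteins had one. Of the assembly factors of the particles 6 transcripts were well counted, 0 were called, and the median log2 fold change was -0.03. RPAP3, a co-chaperone of the R2TP complex, had 0.39 (0.26 to 0.52). NUFIP1, which joins the assembly of box C/D particles, had -0.52 (-0.74 to -0.31), and AQR, the helicase that links splicing to their assembly in introns, had -0.50 (-0.76 to -0.24).

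Of the nonsense-mediated decay factors, which degrade many spliced hosts, 10 transcripts were well counted, 0 were 2-fold higher and 1 lower, with a median of 0.32. Over all well-counted transcripts 15.5% were higher and 9.64% lower, so these calls are no result about the factors as a group. SMG5, which recruits decay enzymes to UPF1, had 95, 103, 40 and 37 counts, a log2 fold change of -1.22 (-1.80 to -0.67). SMG1, the kinase of UPF1, had 2578, 2638, 2430 and 2400 counts, a log2 fold change of 0.03 (-0.05 to 0.11). XRN1, the exonuclease that takes up the cleaved RNA, had 476, 460, 774 and 766 counts, a log2 fold change of 0.86 (0.69 to 1.03). UPF1 itself is not among the well-counted transcripts.

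Host genes outside the members were compared as the most similar set. Of 182 well-counted transcripts of protein-coding hosts 37 (20.3%) were at least 2-fold higher and 14 (7.69%) lower, with a median log2 fold change of 0.45. Over all 7156 well-counted transcripts the shares were 15.5% and 9.64%. From other lncRNA hosts 4 of 15 were higher and 0 lower, with a median of 0.14. The highest of these 15 was ZFAS1, a non-coding host of box C/D RNAs. It had 89, 75, 226 and 207 counts in ENST00000450535, a log2 fold change of 1.54 (1.17 to 1.93), above that of each of the 10 members. The one with the most counts, TMEM161B-DT ENST00000670451, had 390, 391, 274 and 258, a log2 fold change of -0.41 (-0.64 to -0.18). Another transcript of TMEM161B-DT, ENST00000667127, went the other way and was called higher. It had 21, 25, 63 and 54 counts, a log2 fold change of 1.49 (0.77 to 2.25). The sets share the libraries and the scaling, and no difference between them was tested.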

How the data were processed

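Poly-A RNA of H1299 cells given EtOH or 5 μM HgCl2 for 48 h was analysed from 2 tables with 2 columns per group. The authors trimmed reads with Trim Galore, aligned them with STAR 2.5.4b to GRCh38 and counted them per transcript with Rsubread, and the deposited counts are not normalized. The counting options are not given in the sources used here. The kit named in the methods does not mark strand while the study's text calls the sequencing directional, so whether reads of a gene and of its antisense partner were separated is not known. The authors also deposited FPKM values, computed with DESeq2 1.26.0.

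Columns were assigned by the group and replicate number in their names. From the counts, log2 fold changes were computed as ratios of group means scaled by TMM (edgeR 4.0.16, R 4.3.3) over the 17547 transcripts whose mean FPKM exceeds 1 in either group. The quasi-likelihood test of edgeR that the plan named was not used, as each group counts as 1 sample, and a transcript was called at a 2-fold difference. Intervals are 95% Clopper-Pearson intervals (scipy 1.17.1) and a group at 0 was set to 3 counts. The fold step was tested on simulated data. Totals of 4720978 to 5053120 counts make intervals wide under 30 counts.

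Names and exons come from GENCODE 44, in which 223558 of 227368 identifiers were found, and small RNA loci also from RefSeq, 14 of 152 in the members, whose table gives no strand. For 4 members with a count the authors' transcript length differs by over 1% from GENCODE. The members and lists were chosen with earlier results of these data known. Named were every member with a mean of 30 or more counts and, below it, the transcript with the most counts or the largest difference of a gene. From the other lists, only some of those with the most counts and of the called ones were named. Alternatives changed the scaling, the fit, the replicate block, the filter and the columns. One marker gene is not reported here.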

Additional observations from a re-analysis of the deposited data

How the results depend on the processing

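The number of host gene transcripts at least 2-fold higher in HgCl2, 2 of 10, was 1 to 2 when a column was left out (1 without EtOH replicate 1 or HgCl2 replicate 1, where SNHG10 was lost), 0 of 4 with a mean of 100 or more counts, a filter that removes both called transcripts, 0 of 6 genes with counts summed per gene and, an alternative chosen after seeing the data, 0 relative to the median of all well-counted transcripts. The number lower, 1, was the same in each of these, and is SNHG4 ENST00000505522 throughout the fits of single transcripts. When every column had to hold 10 counts 3 of 12 were higher, with a fold of 1.5 3 of 10. The median log2 fold change of 0.26 was 0.43 on the FPKM scale and 0.40 with TMM over all transcripts with a count. The edgeR fit with the replicate number as a block (paired by number) gave 2 higher, 1 lower and a median of 0.26, and changed no call. The labels state no shared batch for a number, and a number pairs nothing where columns differ by less than the sampling noise. The agreement of the HgCl2 columns was 0.497 with at least 100 counts. Depth limits transcripts under 30 counts, whose intervals often span several-fold.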
